A study of Mus musculus with 5 samples.

Results

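Mouse genes that build, carry or edit heparan sulfate were followed in embryonic forelimb RNA: the sulfatases Sulf1 and Sulf2, the glypicans Gpc1 to Gpc6, the polymerase gene Ext1 and the sulfotransferase gene Ndst1. These 10 genes, of 23284 symbols in the count tables, all had counts in all 5 libraries. They were chosen by name, and Sulf1 and Gpc5 were included because they had been seen to change. Their differences are therefore given as a description without a test.

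There were 2 libraries of the dissected distal forelimb bud at E11.5 from wild-type embryos and 2 from Hoxa13-/-;Hoxd13-/- embryos, called mutant here, and 1 library of E10.5 forelimb bud. The Hoxa13 allele carries a neomycin cassette in the coding region and the Hoxd13 allele a lacZ insertion in the first exon. The E11.5 libraries came from separate pools of tissue from a mixed C57BL/6 and CD1 background, and the E10.5 library from CD1 embryos, for which the labels name no mutation. The E10.5 library thus differed from the others in stage, dissected part, strain label and, by the Xist and Ddx3y levels given below, sex make-up. These cannot be told apart, and whether it also differed technically was not tested.

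Heparan sulfate is a long sugar chain attached to core proteins at the cell surface and in the matrix. Ext1 works with Ext2 to lengthen the chain, Ndst1 starts its sulfation, and the secreted Sulf enzymes later remove sulfate groups from finished chains. Glypicans hold such chains at the membrane through a lipid anchor, and the pattern of sulfation governs how FGF, WNT, BMP and hedgehog proteins bind and spread. In limb buds such signals come in part from the apical ectodermal ridge and the posterior margin.

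Counts in genes totalled between 45115494 and 84172202 per library. Hoxd13 measured 247 and 246 CPM (the count scaled to library size) in the wild-type libraries and 47.7 and 40.0 in the mutant, while Hoxa13 measured 50.8 and 47.2 against 48.0 and 39.8. The Hoxa13 level does not check the genotype labels, because transcript outside the insertion is counted too. The forelimb marker Tbx5 lay between 67.0 and 101 CPM in all libraries, and of the hindlimb markers Pitx1 between 0 and 0.399 and Tbx4 between 5.81 and 10.4. The counts of called genes that follow stand beside 3.82% of all 16166 genes tested that rose and 3.34% that fell at an adjusted p below 0.05 (edgeR). The forelimb bud mesenchyme list summed to 1220 and 1180 CPM in the mutant and 1160 and 1070 in wild type, with 1 of 7 genes risen (Prrx1, 0.49 on the log2 scale) and 4 fallen, of which Msx1 (-0.84) moved farthest. Summed CPM of the neuron and Schwann cell list was 30.5 and 33.0 in the mutant and 71.1 and 70.2 in wild type, with 3 of 11 genes fallen and 0 risen. The macrophage list summed to 77.4 and 76.1 against 51.3 and 63.6 (2 of 10 risen), and the cartilage list to 685 and 669 against 535 and 518 (1 of 10 risen, 1 fallen). The muscle list summed to 110 and 134 against 150 and 176 (1 of 10 fallen), the erythroid list to 3070 and 3020 against 2450 and 2350 (1 of 8 tested genes risen), the endothelial list to 266 and 242 against 229 and 236 (1 of 10 risen, 1 fallen) and the ectoderm list to 379 and 404 against 401 and 409 (2 of 12 fallen). The adult globin gene Hba-a1 was at 0 in every library, and Hba-a2 at no more than 0.0179 CPM. Reads without a unique alignment, 9.1% to 14.8% of their library, were not counted in any gene. These low values therefore do not show that the adult globin genes were silent. In bulk tissue fewer cells of a type and less RNA per cell cannot be told apart, and the part of these cell types in the values below was not tested.

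Sulf1, which encodes a secreted enzyme that removes sulfate from heparan sulfate chains outside the cell, was the member with the lowest mutant value relative to wild type. It measured 221 and 239 CPM in the wild-type libraries, 39.4 and 46.5 in the mutant libraries and 26.5 at E10.5. Both wild-type libraries stood far above the other 3. The genotypes did not overlap, as was so for 49.5% of all genes tested. The means were 230 ± 12.4 CPM in wild type and 42.9 ± 5.01 in the mutant (SD, n = 2 each), a log2 fold change of -2.44 (SE 0.11) or 5.41-fold lower in the mutant.

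Its paralogue Sulf2, which encodes an enzyme of the same activity, did not follow. Sulf2 measured 224 and 215 CPM in wild type, 239 and 200 in the mutant and 275 at E10.5. The 2 mutant values lay on either side of the wild-type values. The log2 fold change was -0.014 (SE 0.10), with an adjusted p of 0.965 in edgeR's quasi-likelihood test.

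The sulfatase pair therefore had a different make-up in wild type than in the mutant and at E10.5. Levels of different genes were compared as CPM per kb of annotated exon. Sulf1 made up 39.7% and 42.5% of the summed sulfatase level in the wild-type libraries, 9.92% and 13.4% in the mutant and 6.03% at E10.5. The summed level was 74.6 and 75.2 CPM per kb in wild type, 53.3 and 46.4 in the mutant and 58.9 at E10.5. In plain CPM the wild-type distal bud thus had the highest summed level of the 3 groups. Plain CPM puts E10.5 lower against wild type than the scaling used for the E10.5 comparison below. As Sulf2 was close between the genotypes, the gap between their sums restates the Sulf1 difference.

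Gpc5, a glypican that promotes hedgehog signalling in human rhabdomyosarcoma cells, differed in the opposite direction. It was a low transcript, with 39 and 54 counts in wild type, 335 and 246 in the mutant and 894 at E10.5. In CPM these were 0.864 and 0.967 in wild type, 5.599 and 5.09 in the mutant, and 10.6 at E10.5. The exact Poisson 95% intervals were 0.615 to 1.18 and 0.726 to 1.26 CPM in wild type, and 5.01 to 6.23 and 4.48 to 5.77 in the mutant. They cover counting error only. The 3 groups did not overlap, with wild type lowest, the mutant between and E10.5, a single library, highest. Between the genotypes alone 49.5% of all genes tested did not overlap. The share of all genes with 3 separate groups was not counted, so nothing is read from this order. The means of 0.916 ± 0.0725 and 5.35 ± 0.358 CPM (SD, n = 2 each) gave a log2 fold change of 2.52 (SE 0.23), or 5.75-fold higher in the mutant.

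**Figure D1:**
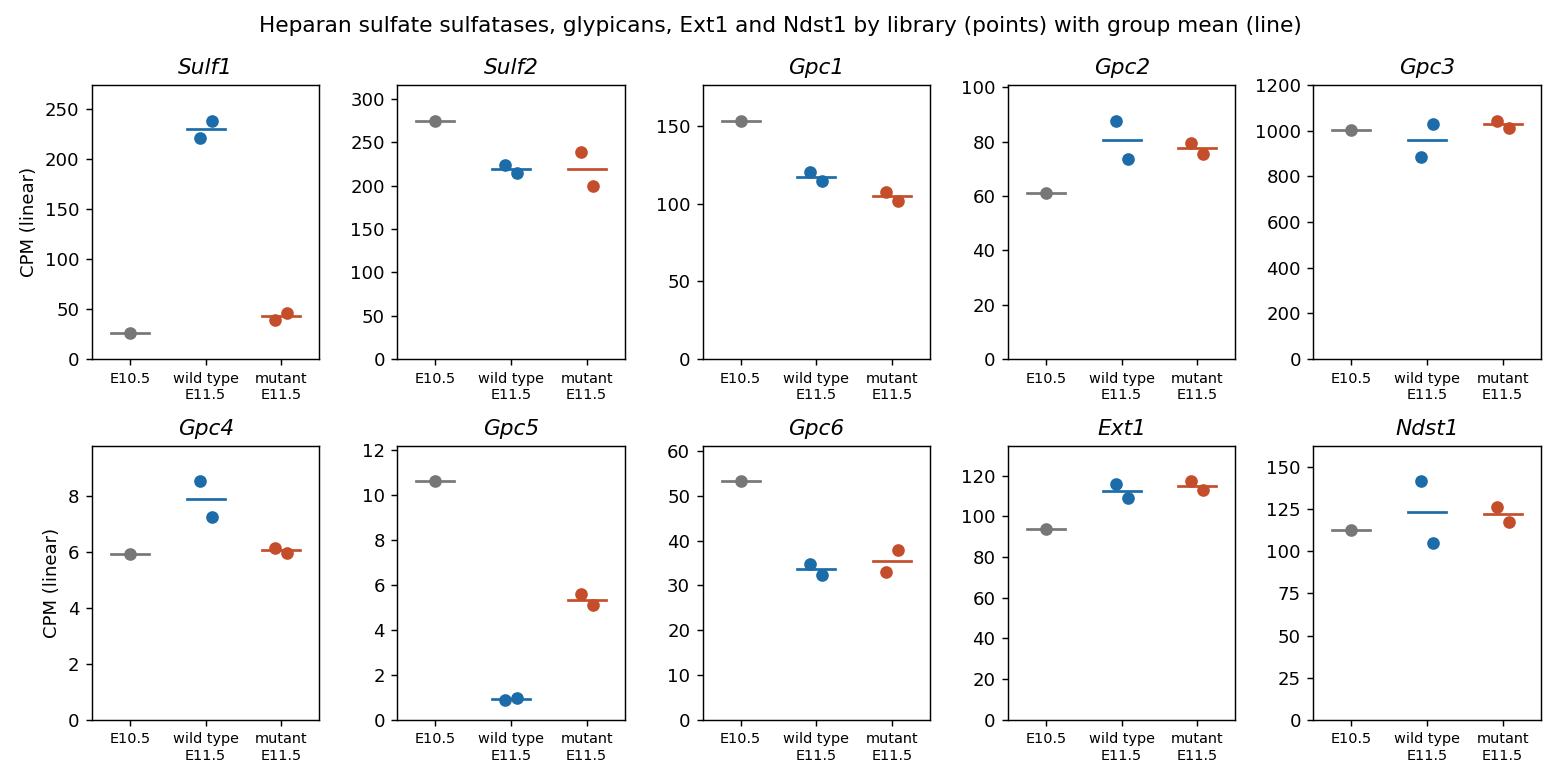
Level of each of the 10 genes in CPM (y axis, linear, from 0) by group (x axis); points are libraries and lines group means. Sulf1 stands at 221 and 239 CPM in wild type against 39.4 and 46.5 in the mutant, and Gpc5 at 0.864 and 0.967 against 5.599 and 5.09, while Sulf2, Gpc2, Gpc3, Gpc6, Ext1 and Ndst1 overlap between the genotypes.

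The Gpc5 promoter is shown because this gene had the highest mutant value relative to wild type among the members. The promoter set used, from RefSeq (GRCm38.p6), held an entry for 5 of the 10 genes. It held none for Sulf1, which was therefore not searched. The 250 bases before its start, chr14:115091965-115092214 on the plus strand, read 5′ to 3′ as follows. Capitals mark the letters of a TATA box (TATAAA, here on the opposite strand) and of a GC box (GGGCGG). They were matched at any position and on either strand, which does not show a working TATA box.
Gpc5 promoter: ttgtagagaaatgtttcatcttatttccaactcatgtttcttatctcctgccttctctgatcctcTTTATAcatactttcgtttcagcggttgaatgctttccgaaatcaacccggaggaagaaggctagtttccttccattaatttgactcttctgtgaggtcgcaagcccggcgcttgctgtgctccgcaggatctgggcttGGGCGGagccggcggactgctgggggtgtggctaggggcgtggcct
Of 32851 promoter windows of the same length 32.7% held GGGCGG and 12.4% held TATAAA on either strand. Sought in the same way, TCGTAAA and CAATAAA, letters bound by HOX13 proteins, occurred in 0.478% and 4.20% of all windows and in none of those of Sulf2, Gpc2, Gpc3, Gpc4 and Gpc5. A missing match says only that these letters are not in this window.

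The other glypicans were led by Gpc3, whose loss causes overgrowth in mice. Gpc3 measured 887 and 1031 CPM in wild type, 1044 and 1014 in the mutant and 1003 at E10.5. The genotypes overlapped (log2 fold change 0.09, SE 0.10, adjusted p = 0.734). Gpc3 made up between 81.3% and 85.0% of the summed glypican level per kb in every library. Gpc5 made up 0.0606% and 0.0610% of that sum in wild type, 0.348% and 0.326% in the mutant and 0.667% at E10.5, a small part in every library. The summed glypican level was 405 and 451 CPM per kb in wild type and 458 and 445 in the mutant.

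Gpc1, a widely expressed glypican, measured 121 and 114 CPM in wild type, 108 and 102 in the mutant and 153 at E10.5. Both mutant values lay below both wild-type values, but the difference did not pass the test (log2 fold change -0.18, SE 0.08, adjusted p = 0.276). Gpc4 measured 8.53 and 7.27 CPM in wild type, 6.17 and 5.96 in the mutant and 5.94 at E10.5. It was likewise lower in both mutant libraries without passing the test (-0.39, SE 0.16, adjusted p = 0.195).

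Gpc2, known from developing neurons, measured 87.7 and 73.4 CPM in wild type, 79.6 and 75.5 in the mutant and 61.0 at E10.5. The genotypes overlapped (-0.07, SE 0.10, adjusted p = 0.792). Gpc6, whose human counterpart is mutated in a short-limb skeletal dysplasia, measured 34.9 and 32.2 CPM in wild type, 32.9 and 38.0 in the mutant and 53.2 at E10.5. The genotypes again overlapped (0.06, SE 0.10, adjusted p = 0.814), and E10.5 was highest.

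**Figure D2:**
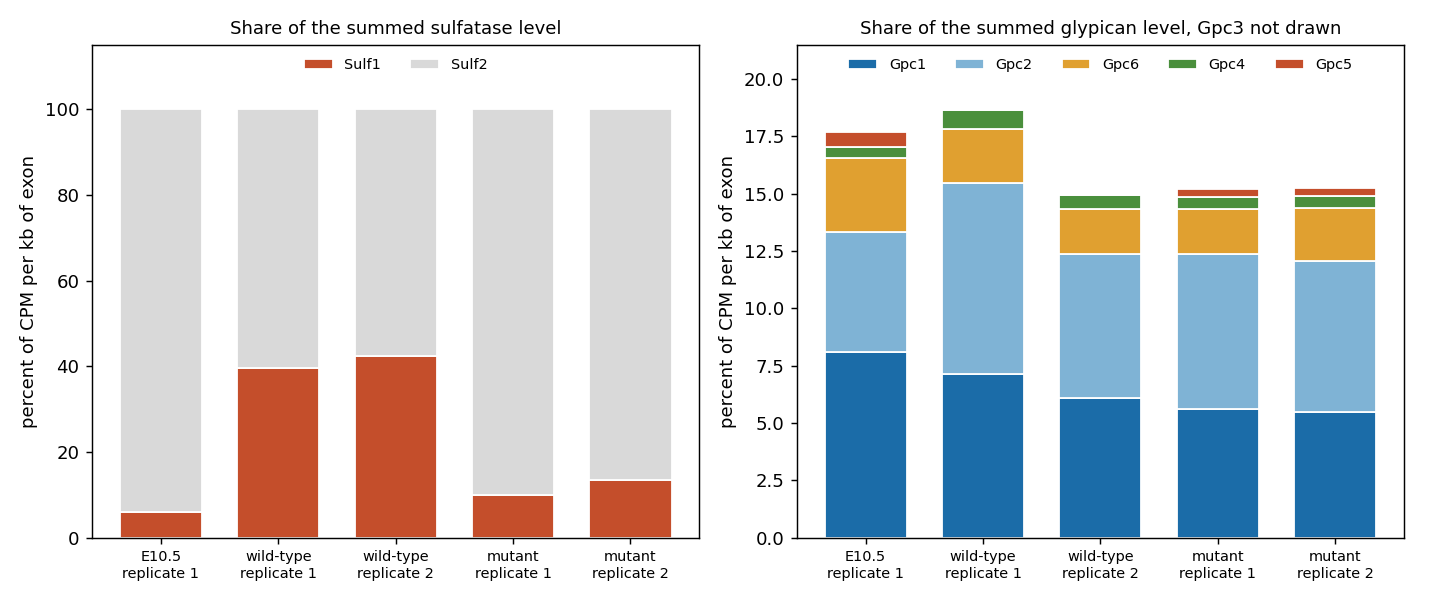
Share of each gene in the summed level of its family, as percent of CPM per kb of exon (y axis, linear), in each library (x axis); Gpc3, 81.3% to 85.0% of the glypican sum, is not drawn. Sulf1 holds 39.7% and 42.5% of the sulfatase sum in wild type and 13.4% or less elsewhere.

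The synthesis genes were close between the genotypes. Ext1, whose human counterpart is mutated in multiple exostoses, measured 116 and 109 CPM in wild type, 117 and 113 in the mutant and 93.9 at E10.5. The difference was 0.018 (log2, SE 0.08, adjusted p = 0.945). Ndst1, which removes acetyl groups from the chain and adds the first sulfates, measured 142 and 105 CPM in wild type, 127 and 117 in the mutant and 112 at E10.5. Both mutant values lay between the wild-type values (-0.023, SE 0.12, adjusted p = 0.950).

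All 10 genes passed the filter on low counts. Of the 8 members other than Sulf1 and Gpc5, 0 had an adjusted p below 0.05 between the genotypes by edgeR and 0 by DESeq2, beside 7.16% of all genes tested. By edgeR 1, Gpc4, had an unadjusted p below 0.05. The share of all genes at that unadjusted level is not given here, so nothing is read from that count. The genotypes did not overlap for 2 of these 8, Gpc1 and Gpc4, beside 49.5% of all genes tested. The median log2 fold change of the 8 was -0.018, within a range of -0.39 to 0.09, and that of all genes tested was -0.0008.

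In the order of levels per kb Sulf1 changed its place between the genotypes and Gpc5 did not. In the wild-type libraries Gpc3 (330 and 383 CPM per kb) stood first and Sulf2 (45.0 and 43.2) second. Gpc2 (33.9 and 28.4), Sulf1 (29.6 and 32.0) and Gpc1 (28.9 and 27.4) followed. Gpc2 overlapped both of the others, while both Sulf1 values lay above both Gpc1 values. Ndst1 and Ext1 came next and overlapped each other, ahead of Gpc6, Gpc4 and, last, Gpc5 (0.246 and 0.275). In the mutant Sulf1 (5.28 and 6.24) stood below Gpc6 (8.99 and 10.4), and Gpc5 (1.59 and 1.45) was still last, below Gpc4 (2.33 and 2.25).

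The comparison of E10.5 with wild-type E11.5 has 1 library on one side and no test. A gene was counted when E10.5 was 2-fold or more above both wild-type libraries, or as far below both, on log2 CPM scaled by TMM, a method that corrects for library composition. In plain CPM the median gene shifts by -0.24 on the log2 scale relative to that. Sulf1 and Gpc5 were counted, 2 of 10 beside 16.7% of the 16738 genes measured (3.86% higher and 12.9% lower at E10.5). Sulf1 was 7.36-fold lower at E10.5 than in wild type, with log2 differences of -2.81 and -2.95 from the 2 libraries. Gpc5 was 13.2-fold higher (3.82 and 3.63).

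The mutant values are set beside the same E10.5 library. Both comparisons use the same wild-type libraries and both genes were chosen for their change, so nothing is read from the 2 comparisons together. For Sulf1 the mutant libraries lay 0.32 and 0.55 above E10.5 on the log2 scale, against 2.81 and 2.95 for wild type. For Gpc5 they lay 1.17 and 1.32 below E10.5, against 3.82 and 3.63 for wild type.

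The other members differed less from E10.5. Gpc6 was 1.87-fold, Gpc1 1.54-fold and Sulf2 1.48-fold higher at E10.5 than in wild type, and in the mutant they were lower than at E10.5 as well (1.80-fold, 1.75-fold and 1.505-fold). Ext1 (-0.024) and Ndst1 (0.12) had log2 differences near 0, and so had Gpc2 (-0.16) and Gpc4 (-0.17). Gpc3 had 0.30. Gpc3 and Gpc4 lie on the X chromosome, and the E10.5 library also differed in sex make-up. Xist, made in female cells, measured 198 CPM there and between 1.02 and 1.45 at E11.5. The Y-linked Ddx3y measured 75.4 against 161 to 194. Sex and stage cannot be told apart for these 2 genes or for any other member.

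Among 48 other genes of heparan sulfate metabolism 47 could be tested, and 2 rose and 4 fell in the mutant, or 6 of 47 beside 7.16% of all genes. Without Hs3st5, which passed the filter on low counts through the wild-type libraries alone, 2 rose and 3 fell of 46. The calls were spread over modification (0 risen and 2 fallen of 14), sulfate donor supply (0 and 1 of 5), other core proteins (1 and 1 of 8) and breakdown (1 and 0 of 10). The linker and polymerisation genes had 0 of 10 past an adjusted p of 0.05 by edgeR, and 0 by DESeq2. At an unadjusted p below 0.05 that list held 1, Extl3, a chain-starting enzyme, with 0.38 (SE 0.12, adjusted p = 0.0897). Nothing is read from this count either, as the share of all genes at that unadjusted level is not given here. The median over the 47 genes was 0.015. With no filter on low counts 11 of these genes were past the threshold, while the calls over all genes went from 1157 to 1762.

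Both modification genes that fell were low transcripts. Hs3st5, a late-acting sulfotransferase of the chain, had 151 counts in the wild-type libraries together, 4 in the mutant libraries and 5 at E10.5. It measured 1.33 and 1.63 CPM in wild type and 0.0334 and 0.0414 in the mutant. The mutant counts lay under the filter's minimum of 10, so that a gene this low in the mutant could be tested only because it was high in wild type, and its call is conditional on that. The ratio of wild type to mutant was 40.4, with an exact 95% interval of 15.5 to 150 for counting error. Ndst4, a relative of Ndst1, fell from 2.15 and 2.22 CPM in wild type to 0.602 and 0.725 in the mutant, and stood at 0.154 at E10.5. Its log2 fold change was -1.74 (SE 0.29, adjusted p = 0.00338).

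Papss2 is one of the enzymes that make the activated sulfate used by these sulfotransferases, and its loss shortens the limbs of brachymorphic mice. It fell from 16.9 and 16.3 CPM in wild type to 8.56 and 10.7 in the mutant, with 2.27 at E10.5 (log2 fold change -0.80, SE 0.14, adjusted p = 0.00463). Hpse2, a heparanase relative without enzyme activity, rose from 29.6 and 35.1 to 67.3 and 62.8 CPM, with 11.98 at E10.5 (0.99, SE 0.11, adjusted p = 0.000202). For Papss2 the mutant lay between E10.5 and wild type, whereas for Hpse2 the mutant was the highest group.

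Among other core proteins the co-receptor gene Tgfbr3 rose from 22.9 and 25.2 CPM to 36.7 and 34.8 in the mutant (0.56, SE 0.11, adjusted p = 0.00814). Sdc2, a transmembrane core protein, fell from 75.3 and 75.6 to 57.2 and 62.0 CPM (-0.36, SE 0.09, adjusted p = 0.0363). The Sdc2 call was lost without mutant replicate 1 (adjusted p = 0.356) or mutant replicate 2 (0.120). The basement membrane proteoglycans Hspg2 (100 and 40.5 CPM) and Agrn (183 and 97.6), named after their values were seen, differed more between the 2 wild-type libraries than between the genotypes.

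**Figure D3:**
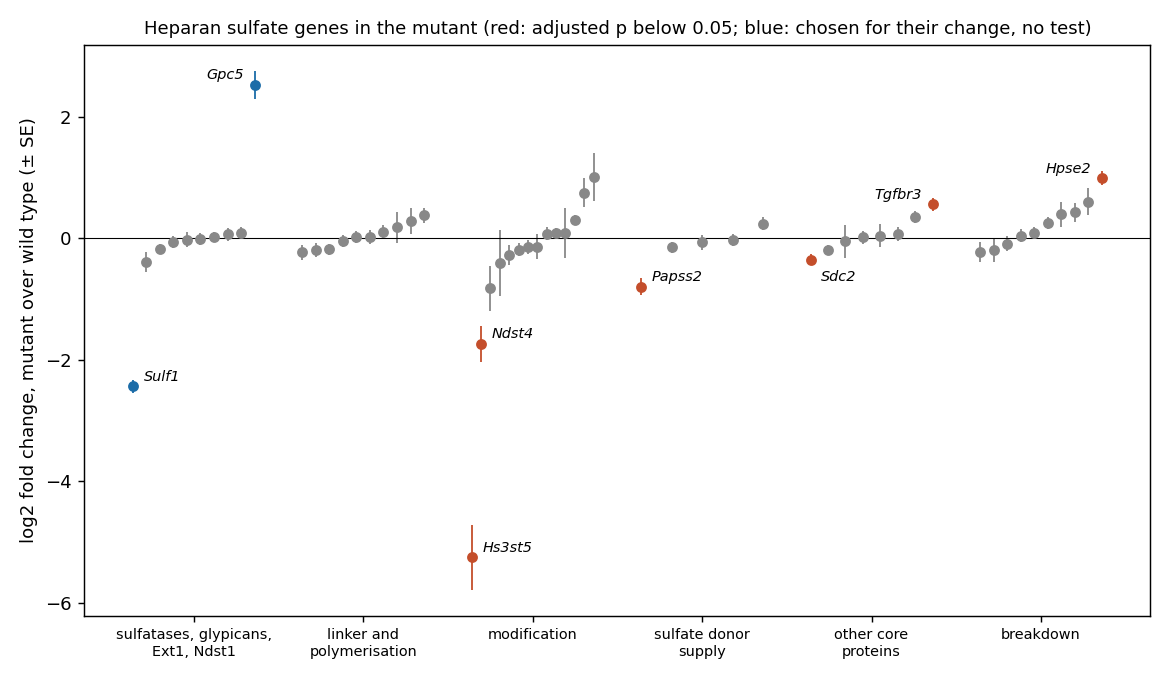
Log2 fold change of mutant over wild type (y axis) with its SE for the 10 genes and for 47 other heparan sulfate genes, grouped by role along the x axis and sorted within each group. Red points had an adjusted p below 0.05; blue points are Sulf1 (-2.44) and Gpc5 (2.52), chosen for their change and given without a test.

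The chondroitin sulfate branch, which shares the linker with heparan sulfate, had 1 risen and 0 fallen of 20 genes tested, beside 3.82% and 3.34% of all genes. The riser was Bgn, the small matrix proteoglycan biglycan, from 10.97 and 10.2 CPM in wild type to 15.7 and 14.9 in the mutant (0.52, SE 0.13, adjusted p = 0.0274). This call was lost without mutant replicate 1 (adjusted p = 0.203) or mutant replicate 2 (0.0791).

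The neighbours of Sulf1 and Gpc5 along the chromosome, in the gene order of GRCm38.p6, were chosen after values were seen. Only genes that passed the filter on low counts were taken, so nearer genes may have been skipped. Slco5a1, an organic anion transporter-like gene and the next tested gene beyond the end of Sulf1, fell. The other 3 of the 4 neighbours of Sulf1 looked at did not pass the test. These were A830018L16Rik (log2 fold change -0.10, adjusted p = 0.895), Prex2 (0.0042, adjusted p = 0.989) and Ncoa2 (-0.21, adjusted p = 0.237). Slco5a1 measured 4.85 and 3.55 CPM in wild type, 1.44 and 1.51 in the mutant and 3.15 at E10.5 (-1.52, SE 0.24, adjusted p = 0.0021). At E10.5 it lay between the genotypes, whereas Sulf1 lay below both. Among the genes tested, Gpc5 lies between Mir17hg, the host of the miR-17 cluster, and Gpc6. Mir17hg had 0.30 (SE 0.10, adjusted p = 0.104), with 84.6 and 97.0 CPM in the mutant against 78.5 and 67.9 in wild type, and Gpc6 is given above. Also looked at were Mir20a (-0.05, adjusted p = 0.961) and, beyond Gpc6, Dct (-1.33, SE 0.44, adjusted p = 0.0996). Mir20a is a microRNA of the cluster that Mir17hg hosts, so it is not a separate neighbour. None of these 4 genes passed the test.

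The genes whose pattern over the 5 libraries was most like that of the 2 were found by Euclidean distance between centred log2 profiles. Nearest to Sulf1 were Mfap3l (distance 0.23), Gm5860 (0.37) and Cmah, a sialic acid hydroxylase gene (0.46). Mfap3l measured 14.9 and 16.04 CPM in wild type, 3.12 and 3.27 in the mutant and 2.02 at E10.5. Cmah measured 464 and 482, then 99.8 and 110, then 79.4. All 3 were high in wild type alone, as Sulf1 was, which follows from their being picked for likeness to it.

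Nearest to Gpc5 were Prtg, an immunoglobulin-type receptor gene (1.22), and the homeobox genes Hoxd3 (1.25) and Hoxd9 (1.28). Their distances were larger than those around Sulf1, but the 2 searches are not alike. Genes had to reach 1 CPM in every group mean, and Gpc5 itself had 0.916 in wild type. Genes as low there as Gpc5 could therefore not be found. Prtg measured 14.8 and 11.1 CPM in wild type, 35.8 and 33.2 in the mutant and 72.3 at E10.5. This was the order of groups of Gpc5, for likeness to which Prtg was picked. Hoxd3 measured 2.505 and 3.42, then 14.1 and 12.2, then 11.8, so its E10.5 and mutant values were close to each other.

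**Figure D4:**
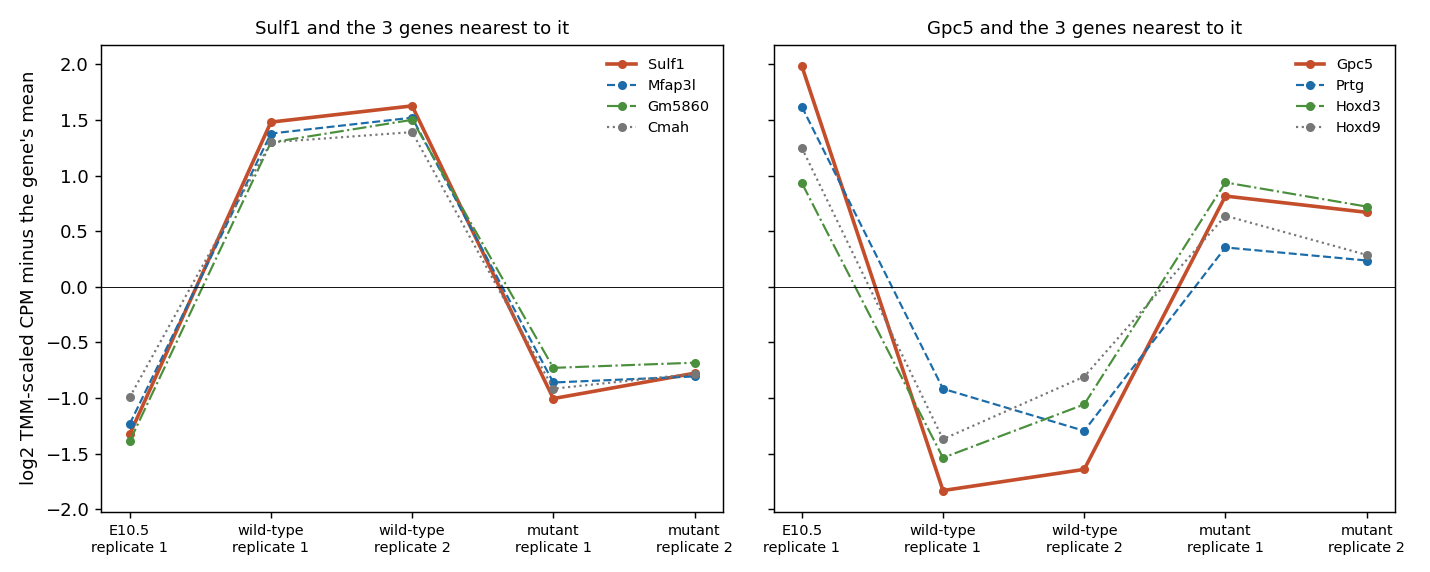
Log2 TMM-scaled CPM minus the gene's own mean (y axis) in each library (x axis) for Sulf1 and Gpc5 and the 3 genes nearest to each; lines only join the points of a gene. The Sulf1 set lies above 0 in both wild-type libraries and below 0 elsewhere, and the Gpc5 set below 0 in both wild-type libraries.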

How the data were processed

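Libraries were stranded, made from total RNA after removal of ribosomal RNA, amplified for 8 PCR cycles and read for 50 cycles from both ends, per the labels' protocols; N = 4 is given for the pooled tissue samples. The submitters' processing notes name mm9 as the genome build and list SAMtools, HTSeq, Cufflinks 2.1.1 and TopHat2 2.0.13. The deposited values are the authors' whole-number read counts per gene symbol. HTSeq's strand setting and annotation are not given in the sources used here, so genes overlapped on the opposite strand in GENCODE vM21 (Sulf2, Gpc1, Gpc3, Gpc5, Gpc6 and Ndst1), and Gpc2, overlapped on its own strand, are uncertain to that extent. The 5 summary lines were left out of library sizes; reads in no feature were 24.3% to 39.6% of their library. Replicate pairs differed beyond counting noise.

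CPM used here is the count over the library total. The 4 E11.5 libraries were filtered with filterByExpr (minimum count 10, total 15), scaled with TMM and tested with edgeR 4.0.16 (quasi-likelihood F test, two-sided, R 4.3.3). The Benjamini-Hochberg adjustment ran over 16166 genes; rose and fell mean an adjusted p below 0.05. SE belongs to the log2 fold change. The pools are separate, but with 2 libraries per genotype p-values measure only the spread between these libraries. The E10.5 comparison used a prior count of 2. Exon length for CPM per kb was the union of GENCODE vM21 basic exons (GRCm38), which may differ from the authors' annotation. Of 167 listed genes 1 was absent from the tables (Snorc). The fit was tested on counts simulated from its own estimates of spread, which checks the code and not the spread between real libraries.

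Named genes were the 10 members, the other heparan sulfate genes past the threshold, up to 3 of the chondroitin branch by p, and the 3 genes nearest to Sulf1 and Gpc5 with at least 1 CPM in every group. Members and lists were chosen with earlier results of these data known. Alternatives were other scalings, no filter, DESeq2 1.42.0, edgeR's newer estimate, all 5 libraries in the fit, a replicate block and leaving out each library.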

Additional observations from a re-analysis of the deposited data

How the results depend on the processing

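Over 11 alternatives the log2 fold change ranged from -2.55 to -2.33 for Sulf1 and from 2.42 to 2.64 for Gpc5. The 8 other members passed in none of the alternatives. Their small values changed sign in 7 cases, whose cause was not tested: without mutant replicate 2 Sulf2, Gpc6 and Ndst1, without wild-type replicate 1 Gpc2, Gpc3 and Ndst1, and without mutant replicate 1 Ext1. With 1 library left out the log2 fold change ranged from -0.15 to 0.12 for Sulf2, -0.16 to 0.037 for Gpc2, -0.045 to 0.23 for Gpc3, -0.035 to 0.16 for Gpc6, -0.013 to 0.051 for Ext1 and -0.20 to 0.18 for Ndst1. The count over all genes (1157) was 1762 with no filter on low counts and ranged from 796 to 2018 when 1 library was left out, with 2018 without wild-type replicate 1. The other heparan sulfate genes past the threshold (6) were 11 with no filter and ranged from 5 to 10 when 1 library was left out, with 10 without either wild-type library. The samples share only a replicate number, and their deviations correlated at -0.08 over genes. With the replicate block 1252 genes and 8 other heparan sulfate genes were called. At 1.5-fold in place of 2-fold, 4 members (3 higher, 1 lower) differed between E10.5 and wild type. The share of all genes was counted at 2-fold only (16.7%), so nothing is read from the count at 1.5-fold. Scaling by library size only moved the median E10.5 difference of all genes by -0.24 (log2), giving Sulf1 -3.12, Gpc5 3.49 and Gpc6 0.67. With 39 and 54 wild-type counts, Gpc5 is the member whose level is least precise.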
